A study of Mus musculus with 18 samples.

Results

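The miR-183 cluster is a set of 3 microRNA (miRNA) genes, Mir183, Mir96 and Mir182, that lie close together on mouse chromosome 6. Its members were taken by name, as both arms of miR-183, miR-96 and miR-182, which gave 6 of the 1390 mature miRNAs in the table. They were followed through 18 small-RNA libraries of mouse embryonic stem cell (ESC) derivation, in 9 groups of 2. Inner cell masses (ICMs) of E3.5 blastocysts of the NMRI strain, from superovulated females, were freed of trophectoderm by immunosurgery. They were sequenced fresh on day 0, as ICM outgrowths on days 0.5, 1, 2, 3 and 5, or as ESCs. All groups carry the label of the same culture condition, R2i with leukemia inhibitory factor, in which R2i stands for 1 μM PD0325901, a MEK inhibitor, with 10 μM SB431542, an inhibitor of activin and TGF-beta type I receptors. Fresh ICMs carry that label as well, although they are given as day 0. ESC groups carry the codes P2, P4 and P15 in their descriptions, whereas their titles give passages 4, 15 and 2. The codes serve only as names, with no passage order attached. The labels do not say whether the 2 libraries of a group came from separate embryos or cultures, so p-values measure only the spread between libraries, which may be technical.

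A miRNA gene is transcribed into a long precursor, from which Drosha cuts a hairpin and Dicer then releases a short duplex. One strand of the duplex usually stays in Argonaute and guides it to messenger RNAs through its seed, bases 2 to 8, and the other is mostly degraded; the strands are named 5p and 3p by their side of the hairpin. The cluster is made as one precursor in many tissues and is best known from sensory organs: retina, inner ear and dorsal root ganglia. Mutations in the seed of miR-96 cause progressive hearing loss in mice and in humans. miR-182-5p and miR-96-5p are known repressors of Foxo transcription factors, and the cluster is also abundant in many epithelia and carcinomas.

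All 6 members had a sequence in the RefSeq table (GRCm38.p6, the patch release of the build that the submitters name as mm10). All 3 hairpins lie on the minus strand of chromosome 6: Mir183 at chr6:30169668-30169737, Mir96 at chr6:30169446-30169551 and Mir182 at chr6:30165918-30165992. Read in the direction of transcription, 116 bases separate Mir183 from Mir96, and 3453 bases separate Mir96 from Mir182. In GENCODE vM21 no other gene overlaps the 3820 bases from the first hairpin to the last, so the hairpins are neither exonic nor intronic to an annotated gene. The nearest protein-coding genes are Nrf1, 12460 bases away, and Ube2h, 41552 bases away, and the retinal noncoding RNA Rncr4 starts 3156 bases away on the plus strand. The hairpins are shown because the results turn on which arm of each was recovered. Both mature arms are in capitals, the 5p arm first, written 5′ to 3′.
Mir183: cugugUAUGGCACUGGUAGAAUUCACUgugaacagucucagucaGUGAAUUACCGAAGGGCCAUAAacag
Mir96: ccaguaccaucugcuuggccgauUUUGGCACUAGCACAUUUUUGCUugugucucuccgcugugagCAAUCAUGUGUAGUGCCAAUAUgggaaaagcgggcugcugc
Mir182: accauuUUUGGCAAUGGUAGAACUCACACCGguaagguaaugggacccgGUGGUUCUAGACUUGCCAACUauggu

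The mature strands are shown with the seed in capitals, because the 3 5p arms have similar but not identical seeds.
mmu-miR-183-5p: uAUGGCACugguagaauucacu
mmu-miR-96-5p: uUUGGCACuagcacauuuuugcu
mmu-miR-182-5p: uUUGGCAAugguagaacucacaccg
mmu-miR-183-3p: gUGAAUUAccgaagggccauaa
mmu-miR-96-3p: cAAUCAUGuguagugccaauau
mmu-miR-182-3p: gUGGUUCUagacuugccaacu
Counted from 1 at the 5′ end, the seed of miR-96-5p differs from that of miR-182-5p by C8A and from that of miR-183-5p by U2A. The seeds of miR-182-5p and miR-183-5p differ by both U2A and A8C. Over their whole length, miR-182-5p and miR-183-5p are the more alike pair, with 18 of 22 positions identical, against 12 of 23 for miR-96-5p with miR-182-5p and 13 of 22 for miR-96-5p with miR-183-5p. None of the 3 5p seeds was shared with another of the 1166 miRNAs of the table that had a RefSeq sequence. A miRNA with the seed of miR-96-5p is encoded on chromosome 13, miR-1271-5p (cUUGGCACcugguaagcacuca, chr13:54578152-54578173, plus strand), and was not analysed here.

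Values are normalized counts, which the authors rounded to whole numbers. Library totals ran from 602238 to 1265117, and 369 to 928 miRNAs were above 0. The depth moved with the stage. Small values of the 10 libraries up to day 3 fell on whole multiples of a step, which puts these libraries at an estimated 110742 to 370150 reads, and the lowest listed value equalled about 5 reads. No step was found in the other 8, from day 5 and ESCs, and if 5 reads was the minimum there too, they held at least 2322097 to 3021270 reads. A miRNA listed at 0 can therefore have had up to 4 reads, and tests were repeated at a common floor of 27.2 normalized counts, the value of 5 reads in the shallowest library, to which lower values were raised. Levels of different miRNAs are compared only as recovered reads, since small-RNA ligation captures sequences unequally.

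miR-182-5p, the strand of Mir182 known as a Foxo repressor, carried most of the cluster's reads in each of the 18 libraries. It stood at 19224 and 21746 normalized counts in ICM, 28448 and 23645 on day 0.5, 57339 and 52231 on day 1, 92428 and 117500 on day 2, 146380 and 82297 on day 3, and 56076 and 84301 on day 5. In ESCs it stood at 113745 and 121388 in P2, 119225 and 77711 in P4, and 194670 and 199202 in P15. The ICM libraries were the lowest of all 18 and the P15 libraries the highest, with no overlap with any other group at either end. As a share of all normalized counts it went from 3.33 ± 0.20% in ICM (SD, n = 2) to 13.1 ± 1.7% on day 2, 9.41 ± 1.92% on day 5 and 16.0 ± 0.42% in P15. By rank it moved from the seventh and the fifth most abundant miRNA in the ICM libraries over the third and the eighth on day 0.5 to the second in all libraries of days 1 to 5. In ESCs it was the first in both P2 libraries, the third in both of P4 and the second in both of P15.

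miR-183-5p, the other abundant strand and the one whose hairpin lies first in the direction of transcription, started from a lower level. It was listed at 1164 and 1749 in ICM, 2481 and 2253 on day 0.5, 3369 and 3854 on day 1, 5159 and 5507 on day 2, 21513 and 5608 on day 3, and 6532 and 16229 on day 5. ESC values were 11977 and 17860 in P2, 39641 and 13597 in P4, and 86214 and 95936 in P15. From ICM to day 2 each group lay wholly above the one before. Day 3, day 5, P2 and P4 overlapped each other, and P15 lay above all other libraries. Its share of all normalized counts was 0.236 ± 0.061% in ICM and 7.41 ± 0.24% in P15 (SD, n = 2 each), which made it the fourth most abundant miRNA in both P15 libraries.

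miR-96-5p, whose seed is mutated in hereditary deafness, was recovered at far lower values than its neighbours on the same precursor. Its 2 ICM values of 33 and 40 rest on an estimated 6 and 13 reads, with exact 95% Poisson intervals of 12.0 to 71.0 and 21.5 to 68.9 normalized counts, which cover counting error only. Outgrowths ranged from 35 to 197 with a median of 72, and ESCs from 63 to 346 with a median of 144.5. The P15 libraries, at 346 and 255, were the 2 highest of the 18. In the order of group means, ICM (36.5 ± 5.0) lay below day 0.5 (53.5 ± 5.0) without overlap, each pair of neighbours from day 0.5 up to day 3 overlapped, and P15 (300.5 ± 64.3) lay above day 3 (142.0 ± 77.8; SD, n = 2 each).

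**Figure D1:**
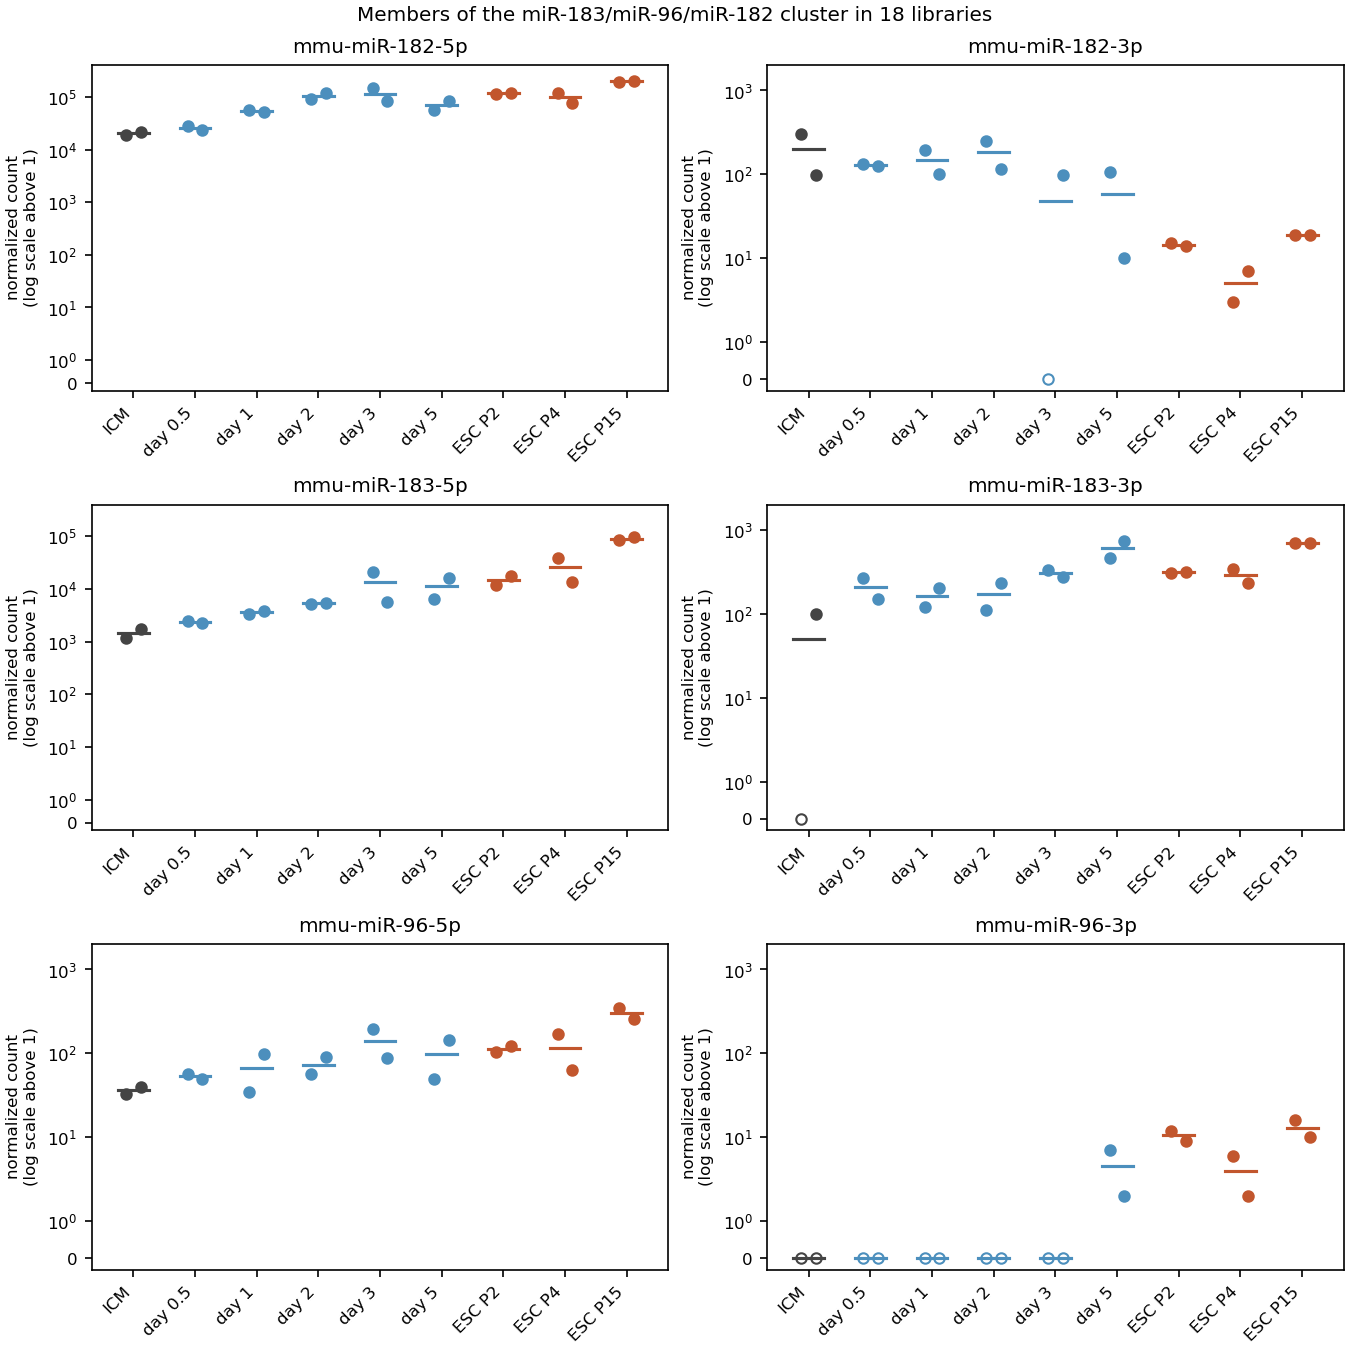
Normalized counts of the 6 members (vertical axis, log scale above 1) in the 9 groups (horizontal axis), with 1 point per library, a line at the group mean and open points for values listed at 0. The 3 5p arms have their lowest group mean in ICM and their highest in ESC P15 as deposited (after quantile normalization the log2 change of miR-182-5p in P15 against P2 was -0.75), whereas miR-182-3p lies at 3 to 19 in all ESC libraries and miR-96-3p is above 0 only from day 5 on, where the libraries are deeper.

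Of the 3p strands, miR-183-3p was listed at 0 in ICM replicate 1 and at 99 in ICM replicate 2, where it rests on an estimated 32 reads. It ran from 112 to 744 in outgrowths (median 251.5) and from 234 to 707 in ESCs (median 329.5). Its highest values were the 744 of day 5 replicate 2 and the 707 and 695 of P15, and its order of groups differed from that of miR-183-5p, with day 5 (605.5 ± 195.9) above P2 and P4. miR-182-3p went the other way from its partner strand: it was listed at 299 and 99 in ICM, 133 and 127 on day 0.5, 195 and 101 on day 1, and 251 and 115 on day 2. On day 3 the values were 0 and 97, on day 5 they were 107 and 10, and in ESCs they were 15 and 14 in P2, 3 and 7 in P4, and 19 and 19 in P15. The 6 ESC libraries lay below both ICM libraries, and the 2 libraries of day 5 differed by a factor of 10.7. miR-96-3p was listed at 0 in the 10 libraries of days 0 to 3, at 7 and 2 on day 5, and at 2 to 16 in ESCs. Its highest value, 16, lies below the 27.2 and about at the 15.5 normalized counts that 5 reads were worth in the 2 ICM libraries, so its absence there was not distinguishable from shallow sequencing, and no fold against the shallow libraries is given for it.

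Together the 6 members held 3.44% and 3.79% of all normalized counts in ICM, 3.48% to 4.90% on day 0.5, 8.45% to 8.84% on day 1, 12.7% to 15.0% on day 2 and 13.2% to 17.4% on day 3. The share was 9.08% and 12.9% on day 5, 16.2% and 17.2% in P2, 10.1% and 13.2% in P4, and 23.4% and 23.7% in P15. Day 5 and P4 overlapped, and P2 and P15 lay above both.

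**Figure D2:**
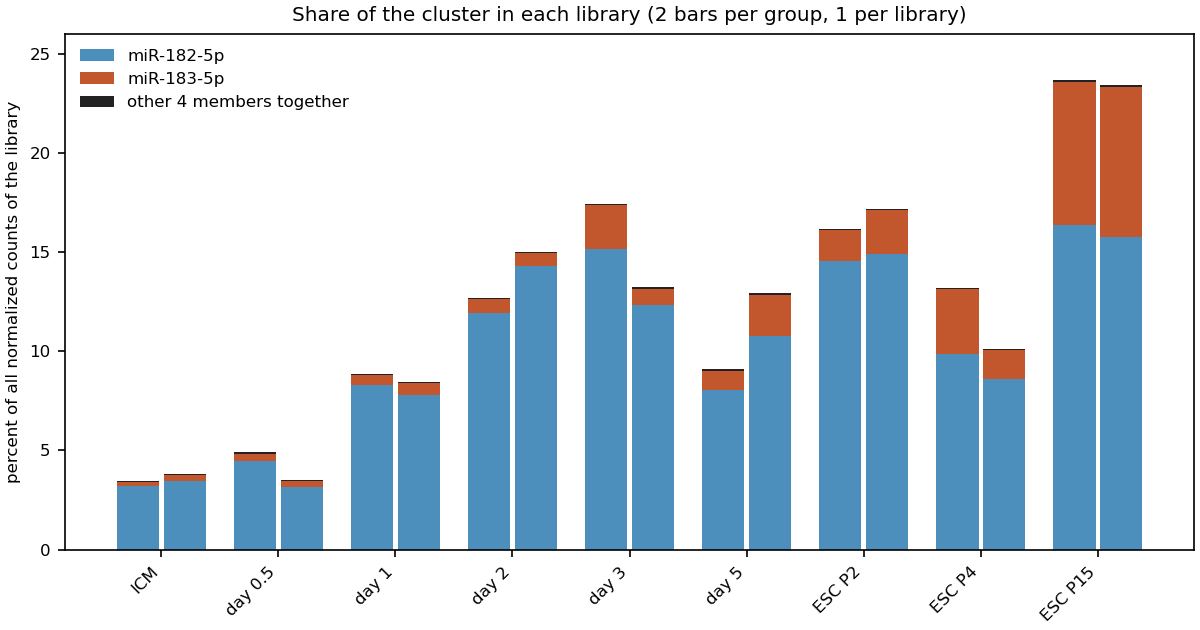
Percent of all normalized counts (vertical axis) taken by miR-182-5p, by miR-183-5p and by the other 4 members together, stacked, with 1 bar per library and 2 bars per group. The cluster grows from 3.44% in ICM replicate 1 to 23.7% in P15 replicate 1, and the part of miR-183-5p is widest in P15.

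Within the cluster the balance of the 2 abundant strands shifted. Reads of miR-182-5p outnumbered those of miR-183-5p 16.5 and 12.4 times in ICM, 17.9 and 21.3 times on day 2, 8.58 and 5.19 times on day 5, 9.50 and 6.80 times in P2, 3.01 and 5.72 times in P4, and 2.26 and 2.08 times in P15. miR-182-5p made up 91.6% to 92.8% of the cluster in ICM, 94.3% to 95.2% on day 2 and 67.3% to 69.0% in P15, while miR-183-5p went from 5.62% and 7.37% in ICM to 30.6% and 32.4% in P15. The ratio of miR-182-5p to miR-96-5p had no such course: it was 582.5 and 543.7 in ICM and 562.6 and 781.2 in P15, and between them it ran from 472.9 on day 0.5 to 1650.5 on day 2. These ratios are a description, and no test was made on them.

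**Figure D3:**
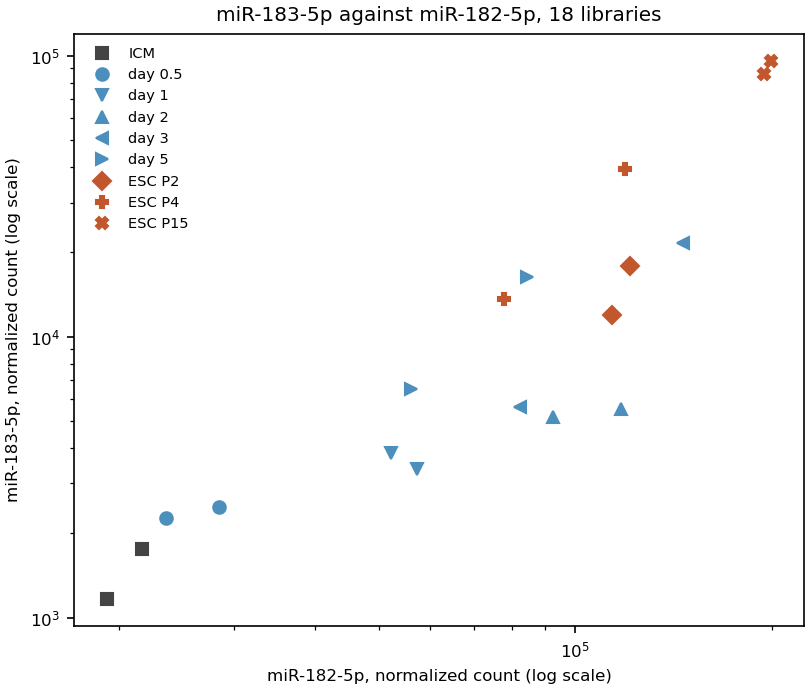
Normalized counts of miR-183-5p (vertical axis, log scale) against miR-182-5p (horizontal axis, log scale), with 1 point per library and 1 symbol per group. ICM libraries lie at the lower left and P15 libraries at the upper right, and at similar values of miR-182-5p the day 2 libraries (5159 and 5507 miR-183-5p) lie below those of P2 (11977 and 17860).

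Replicates of a group often differed in the same direction for the 5p strands. In 8 of 9 groups the library with more miR-182-5p also had more miR-183-5p, and in 7 of 9 all 3 5p arms had their higher value in the same library. The widest gap of miR-183-5p was on day 3, where replicate 1 held 3.84 times the value of replicate 2, with 1.78 times as much miR-182-5p and 2.26 times as much miR-96-5p. In P4 replicate 1 held 2.92, 1.53 and 2.67 times the values of replicate 2 for these strands. Library totals moved with these gaps, at 967060 against 668306 on day 3 and 1209786 against 906381 in P4, and their part was not tested.

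The first comparison set ESCs (6 libraries) against ICM (2 libraries), by limma over 811 miRNAs. Of the 6 members 5 were called higher, where 31.6% of all tested miRNAs were, and 1 was called lower, where 23.7% were. The median log2 change was 2.92 for the members and 0.01 for all miRNAs tested. Without miR-96-3p the median of the other 5 members was 2.68, with 4 called higher and 1 lower. At the common floor 602 miRNAs were tested, of which 35.9% were called higher and 32.2% lower. One of the 5, miR-96-3p, passed the filter on low values only through its ESC libraries and is at or below what the ICM libraries could show, so its call is not read. miR-182-5p rose from 20485 ± 1783 (SD, n = 2) to 137657 ± 48596 (n = 6), a log2 change of 2.68 (SE 0.23, limma adjusted p = 1.81e-06), with each ESC library above both ICM libraries. miR-183-5p rose from 1456.5 ± 413.7 to 44204 ± 37766, a log2 change of 4.46 (SE 0.52, limma adjusted p = 1.99e-05), again without overlap. miR-96-5p rose from 36.5 ± 5.0 to 176.3 ± 105.9 (2.03, SE 0.54, limma adjusted p = 0.00797), also without overlap, but with libraries weighted by their quality the adjusted p was 0.258. When each library was scaled to one common total, the change was 3.74 for miR-183-5p, 1.96 for miR-182-5p and 1.32 for miR-96-5p, and the median of all miRNAs was -0.48.

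The 3p strands moved apart in that comparison. For miR-183-3p the log2 change was 5.31 (SE 1.21, limma adjusted p = 0.00293), and 2.93 at the common floor (adjusted p = 1.52e-04). Its size depends on ICM replicate 1, where it is listed at 0: the change was 1.99 without that library and 8.63 without ICM replicate 2, and the call was kept both ways. miR-182-3p fell from 299 and 99 in the ICM libraries to 12.8 ± 6.5 in ESCs (SD, n = 6), a log2 change of -3.84 (SE 1.38, limma adjusted p = 0.0355) and of -2.66 at the common floor (adjusted p = 0.00241). The call as deposited was lost without any one of 7 of the 8 libraries, P4 replicate 2 being the exception (adjusted p between 0.0475 and 0.184 over the 8), and with library weights (adjusted p = 0.28).

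In outgrowths of days 0.5 to 5 against ICM, 3 of 6 members were called higher (16.3% of all tested miRNAs were) and 0 lower (18.6% were). At the common floor these shares of all miRNAs were 19.1% and 26.7%. The median log2 change was 1.66 for the 5 members other than miR-96-3p and -0.31 for all miRNAs. By unadjusted p below 0.05 the count of lower members was 0 too, the 2-sided p of miR-182-3p being 0.298. miR-182-5p rose by 1.66 log2 (SE 0.22, limma adjusted p = 1.36e-04), from 20485 to a mean of 74064.5 ± 38483.7 (SD, n = 10). miR-183-5p rose by 1.95 (SE 0.49, adjusted p = 0.00947), from 1456.5 to 7250.5 ± 6403.0. For both strands all 10 outgrowth libraries were above both ICM libraries. miR-183-3p was the third member called (4.63, SE 1.15, limma adjusted p = 0.00897), at 2.25 at the common floor and at 1.31 without ICM replicate 1 (adjusted p = 0.0385). The change of miR-96-5p was 1.04 (SE 0.52, adjusted p = 0.145), and it was called after quantile normalization, which gives each library the same distribution of values (1.72, adjusted p = 0.0254). With library weights only miR-183-3p kept its call (adjusted p = 0.101 for miR-182-5p and 0.467 for miR-183-5p), and without ICM replicate 1 the adjusted p of miR-183-5p was 0.0784.

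ESC libraries were next compared with all outgrowths. Of the members 4 were called higher (31.9% of all tested miRNAs) and 1 lower (19.9%), where the common floor gave 36% and 26.7% of all. Without miR-96-3p, 3 of 5 were called higher, with a median log2 change of 0.99 against 0.28 for all miRNAs. miR-183-5p rose by 2.51 log2 (SE 0.33, limma adjusted p = 6.53e-05), although P2 and P4 libraries overlapped the outgrowths of days 3 and 5. miR-182-5p rose by 1.02 (SE 0.14, limma adjusted p = 1.22e-04), a call that quantile normalization removed (0.28, adjusted p = 0.113). For miR-96-5p the rise was 0.99 (SE 0.34, limma adjusted p = 0.0322). Its call was lost at equal library totals (0.55, adjusted p = 0.173) and without any one of 10 of the 16 libraries (adjusted p up to 0.113, without P4 replicate 1). The fourth call, miR-96-3p, sets deep ESC libraries against mostly shallow ones and is not read. miR-182-3p fell, with a log2 change of -2.41 (SE 0.88, limma adjusted p = 0.0382) and of -1.83 at the common floor (adjusted p = 0.00141). With the replicate number as a block its adjusted p was 0.0503, with no filter 0.0526, and without any one of 11 of the 16 libraries up to 0.0967. miR-183-3p changed by 0.68 (SE 0.77, limma adjusted p = 0.491).

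The comparison of ESCs with day 5 sets deep libraries against deep libraries, with depth estimated only as a lower bound. Only miR-182-5p was called, as higher (1 of 6 members, against 5.92% of all tested miRNAs), and 0 of 6 were called lower (9% of all). At the common floor, 17.1% of all were called higher and 14.5% lower. By unadjusted p below 0.05, 2 were higher and 0 lower. miR-182-5p changed by 0.93 (SE 0.23, limma adjusted p = 0.0179), with the 77711 of P4 replicate 2 below the 84301 of day 5 replicate 2. The call was lost at equal library totals, which moved the median of all miRNAs from -0.05 to -0.41 (0.48, adjusted p = 0.0537), after quantile normalization (0.02, adjusted p = 1) and without day 5 replicate 1 (0.63, adjusted p = 0.293). miR-183-5p changed by 1.61 (SE 0.52, limma adjusted p = 0.0642). It was called at the common floor (adjusted p = 0.034), with library weights (0.0155) and without P4 replicate 2 (0.0292). It was not called at equal library totals (1.16, adjusted p = 0.095) or after quantile normalization (0.78, 0.289). Leaving out 1 library moved it between 0.95, without day 5 replicate 1 (adjusted p = 0.638), and 2.26, without day 5 replicate 2. The other changes were 0.83 (SE 0.54) for miR-96-5p, -0.57 (SE 1.21) for miR-183-3p and -1.52 (SE 1.38) for miR-182-3p, with limma adjusted p of 0.49, 1 and 0.705.

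**Figure D4:**
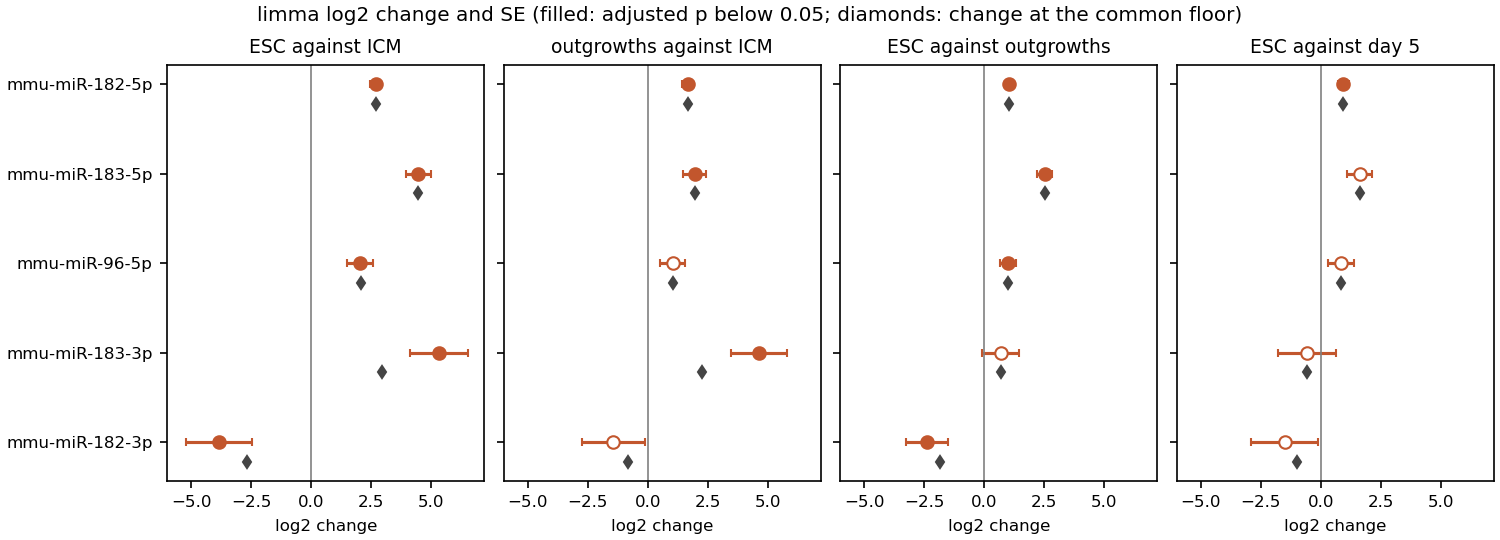
limma log2 change (horizontal axis) of 5 members in 4 comparisons, with the SE as bars, filled points for an adjusted p below 0.05 and diamonds for the change at the common floor of 27.2. miR-182-5p is filled in all 4 panels, and miR-183-3p shrinks from 5.31 to 2.93 at the floor in ESC against ICM; miR-96-3p is left out because no value of it reaches the floor.

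Among single time steps, 1 gave a call that can be read. miR-182-5p rose between day 0.5 and day 1 by 1.08 log2 (SE 0.28, limma adjusted p = 0.025; 1 of 6 members against 4.69% of all tested miRNAs), with both libraries of day 1 above both of day 0.5. That call was lost without any one of the 4 libraries (adjusted p between 0.0553 and 0.134) and with library weights (0.316). None of the 6 was called lower in that step, where 10.5% of all were, by adjusted or unadjusted p below 0.05 in limma. miR-96-3p was called from day 3 to day 5 (1 of 6 against 12.2% of all higher, and 0 against 6.17% lower), where the depth changes as well. Its day 5 values of 7 and 2 lie below what 5 reads were worth on day 3, so this call is not read. By unadjusted p below 0.05, miR-182-5p was lower from day 3 to day 5. In the other 3 steps limma called 0 of 6 members, and 1 had an unadjusted p below 0.05 in each. Of all tested miRNAs, 8.01% were higher and 3.33% lower from ICM to day 0.5, 4.07% and 6.78% from day 1 to day 2, and 2.1% and 1.97% from day 2 to day 3. The next largest step of miR-182-5p was 0.93 from day 1 to day 2 (SE 0.28, limma adjusted p = 0.0622), called at the common floor (adjusted p = 0.0464) and at equal library totals (0.70, adjusted p = 0.0331), not called with library weights (0.162), and at 0 after quantile normalization (adjusted p = 1). From ICM to day 0.5 it changed by 0.34 (SE 0.28, adjusted p = 0.5), from day 2 to day 3 by 0.07 (SE 0.28) and from day 3 to day 5 by -0.67 (SE 0.28, adjusted p = 0.144). miR-183-5p changed by 0.73, 0.61, 0.56 and 1.04 in the first 4 steps and by -0.09 in the last (SE 0.63 each), none of which was called. The last 2 of these rest on single libraries: day 3 against day 2 was 0.07 without day 3 replicate 1 and 2.01 without replicate 2, and day 5 against day 3 was 0.88 and -1.06 without these libraries. miR-183-3p changed by 4.33 from ICM to day 0.5 (SE 1.48, limma adjusted p = 0.0949), and by 1.95 (adjusted p = 0.0356) at the common floor. miR-182-3p changed by -4.11 from day 2 to day 3 (SE 1.70, limma adjusted p = 0.282; -1.73 at the floor), and by -7.42 (adjusted p = 0.00281) without day 3 replicate 2, which leaves the 0 of replicate 1 alone.

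Among ESC groups, both P15 libraries lay above those of P2 and P4 for all 3 5p arms as deposited. For miR-182-5p this order over P2 depends on the scaling: P15 against P2 was 0.74 (SE 0.28, limma adjusted p = 0.0866), 0.12 at equal library totals (0.843) and -0.75 after quantile normalization (0.0667). Against P2, miR-183-5p was higher by 2.64 log2 in P15 (SE 0.63, limma adjusted p = 0.0108; 1 of 6 members called against 9.74% of all tested miRNAs, and 0 lower by adjusted or unadjusted p against 11.6%), and by 2.01 at equal library totals (adjusted p = 0.0131). Leaving out P2 replicate 1 or either P15 library raised its adjusted p to between 0.0558 and 0.0929 at changes of 2.35 to 2.71. After quantile normalization the change itself was smaller, at 1.41 (adjusted p = 0.0559). Against P4, miR-182-5p was called higher in P15 (1.03, SE 0.28, limma adjusted p = 0.0249; 1 of 6 higher against 7.77% of all, 0 lower by adjusted or unadjusted p against 8.75%). Its adjusted p was 0.233 without P4 replicate 2, 0.11 and 0.126 without either P15 library, and 0.0978 after quantile normalization. miR-183-5p was 1.97 higher in P15 than in P4 (SE 0.63, limma adjusted p = 0.0589), and was called in that comparison at the common floor (0.0343, with 15.6% of all called higher and 15.4% lower), with a pseudocount of 10 (0.0419), at equal library totals (0.0411), with library weights (0.00366) and without P4 replicate 1 (2.74, 0.0267). It was not called after quantile normalization (1.22, adjusted p = 0.106) or without P4 replicate 2 (1.20, 0.411). Between P4 and P2, 0 of 6 members were called in either direction by limma, where 8.88% of all tested miRNAs were called each way. There, 1 member had an unadjusted p below 0.05, miR-96-3p (-1.32, SE 0.58, limma adjusted p = 0.179), at values of 2 to 12. The value of miR-182-5p in P4 against P2 was -0.29 as deposited (limma adjusted p = 0.703), -0.68 at equal library totals (0.0228) and -1.45 after quantile normalization (0.0025).

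The arm ratio, the value of the 5p strand over that of the 3p strand of one hairpin, does not depend on how a library was scaled. For miR-182 it was 64.3 and 219.7 in ICM, 213.9 and 186.2 on day 0.5, 294.0 and 517.1 on day 1, and 368.2 and 1021.7 on day 2. On day 3 it was above 6085 in replicate 1, where the 3p arm is listed at 0 and the bound uses the 24.1 normalized counts that 5 reads are worth, and 848.4 in replicate 2. On day 5 it was 524.1 and 8430, and in ESCs it was 7583 and 8671 in P2, 39742 and 11102 in P4, and 10246 and 10484 in P15. All ESC libraries lay above both ICM libraries, day 5 replicate 2 fell within their range, and the bound of day 3 replicate 1 does not place it below them. For miR-183 the ratio was above 42.8 in ICM replicate 1, where the 3p arm is listed at 0, and 17.7 in replicate 2. It was 9.22 to 64.8 in outgrowths and at least 38.9 in each ESC library, with day 5 (14.0 and 21.8) below all 6 ESC libraries. For miR-96 it could be formed from day 5 on, at 7 to 73.

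Arm ratios were tested by limma over 193 hairpins with both arms measured. In ESCs against day 5, 0 of the 3 hairpins were called, where 1.04% of all rose and 0.518% fell, and 0 had an unadjusted p below 0.05. The log2 changes were 2.44 for miR-182 (SE 1.61, limma adjusted p = 0.844), 2.18 for miR-183 (SE 1.21, adjusted p = 0.833) and -0.04 for miR-96 (SE 0.74, adjusted p = 0.998), with a median of 0.15 over all hairpins. The miR-183 ratio was called at the common floor (2.18, adjusted p = 0.00803), with library weights (0.042) and when only the day 5 and ESC libraries entered the fit (0.0103). No ratio was called among the 3 ESC groups (limma F test, adjusted p = 1 for each hairpin, 0 of 3 at an unadjusted p below 0.05, 0.518% of all hairpins called). ESCs were also compared with ICM, a comparison chosen after the values of miR-182-3p were seen. That strand is part of the miR-182 ratio, so the call of this ratio is not separate support for its fall. The miR-182 ratio was higher by 6.52 log2 (SE 1.61, limma adjusted p = 0.00839; 1 of 3 hairpins called higher against 20.7% of all, and 0 lower against 13.5%), and by 5.34 at the common floor (adjusted p = 9.67e-05). This was the 11th largest of the 193 changes, and the median was 0.50. Without ICM replicate 1 it was 5.64 (adjusted p = 0.0828), and with library weights the adjusted p was 0.0646. For miR-183 the change was -0.85 as deposited (adjusted p = 0.621) and 1.53 at the common floor, since its 3p arm is listed at 0 in ICM replicate 1. The miR-96 ratio against ICM is not read, since its 3p arm is listed at 0 in both ICM libraries.

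**Figure D5:**
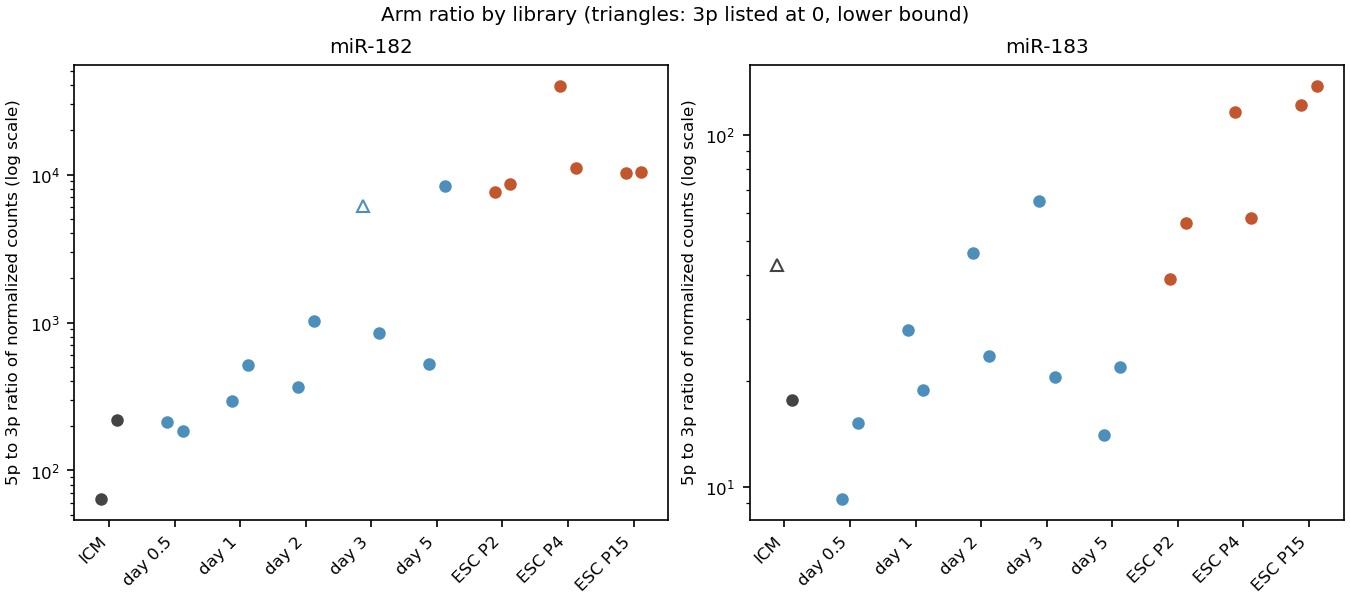
Ratio of the 5p to the 3p strand (vertical axis, log scale) of miR-182 and miR-183 by group (horizontal axis), with 1 point per library and open triangles for lower bounds where the 3p strand is listed at 0. For miR-182 the ESC libraries lie at 7583 to 39742 and the ICM libraries at 64.3 and 219.7, and for miR-183 all 6 ESC libraries lie above both libraries of day 5.

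The miRNAs whose levels followed the 5p strands most closely were sought among 277 non-members with a mean of at least 100, by Pearson r over the 18 libraries on log2 values raised to the common floor. These libraries share depth and stage, so r is a description. The nearest to miR-183-5p was miR-191-5p (r = 0.99), an abundant miRNA of an intron of Dalrd3, which went from 10055 and 12375 in ICM to a mean of 48579 in P2, 89892 in P4 and 268828 in P15. Next came miR-24-3p (r = 0.93), listed at 38 and 0 in ICM, and miR-148a-3p (r = 0.93), a repressor of Dnmt1, which went from 2120.5 in ICM to 9943 ± 2249 in ESCs (SD, n = 6). For miR-96-5p the nearest were miR-191-5p (0.90), miR-148a-3p (0.87) and miR-30c-1-3p (0.85), and for miR-182-5p they were miR-148a-3p (0.89), miR-106b-3p (0.87) and miR-335-3p (0.86). Between members, r was 0.91 for miR-183-5p with miR-96-5p, 0.89 for miR-183-5p with miR-182-5p and 0.83 for miR-96-5p with miR-182-5p. It was -0.84 for miR-183-5p with miR-182-3p.

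Several lists of other miRNAs also had members called in ESCs against ICM. Of all tested miRNAs, 31.6% were called higher there and 23.7% lower, at a median of 0.01. Of the neural and sensory miRNAs 4 of 7 were higher and 0 lower (median 2.88, and 0.23 at the common floor). Against outgrowths 5 of 7 were higher (median 3.33, and 0.39 at the floor), where 31.9% of all tested miRNAs were. Since 7 of the 12 listed were at 0 in both shallow ICM libraries, and most outgrowths are shallow too, these counts are not read. In the miR-302/miR-367 cluster, typical of primed epiblast, 7 of 8 were higher (median 4.51, and 1.05 at the floor). Against outgrowths 6 of 8 were higher (31.9% of all were), with a median of 1.77, and 0.20 at the floor. Of the 9 listed strands of that cluster 6 were at 0 in both ICM libraries. The summed level of the listed strands was 27 to 38 in ICM and 770 to 865 on day 3, all in shallow libraries. The change of miR-302d-3p in ESCs against ICM was 3.63 at the floor. How much of the count against ICM comes from the difference in depth was not tested. Of the blood miRNAs 3 of 5 were higher and 1 lower (median 2.28, and 1.29 at the floor), with miR-142-5p up by 2.32 (SE 0.29, limma adjusted p = 3.38e-05). Of the fibroblast and smooth muscle miRNAs 2 of 6 were higher and 2 lower (median -2.36), and miR-10b-5p fell, with a log2 change of -2.97 (SE 0.38, limma adjusted p = 4.54e-05). The miR-290 cluster had 4 of 14 higher and 2 lower (median 0.14), the miR-200 family 2 of 8 higher and 0 lower (0.42), and the endoderm miRNAs 1 of 3 higher and 0 lower (-0.07).

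The same lists were read in ESCs against day 5, where no library is shallow, although depth is estimated only as a lower bound. Of all tested miRNAs, 5.92% were called higher there and 9% lower, and the median of all was -0.05. Equal library totals moved that median to -0.41, and the counts of these lists were not tested at that scaling. The naive pluripotency cluster that starts with miR-290, a support of the ESC cell cycle, had 9 of 14 tested members called higher and 0 lower as deposited (median log2 change 0.76). Its most abundant strand, miR-292-5p, rose by 0.93 (SE 0.11, limma adjusted p = 1.91e-04). As a share of all normalized counts, the listed strands of this cluster held 7.91% to 11.12% on day 5. The share in P4 overlapped that range, at 9.004% to 13.58%. It lay just above the range in P15, at 11.13% to 11.36%, and further above in P2, at 13.06% to 14.93%. Members of the miR-302/miR-367 cluster were called lower in 3 of 8 cases and higher in 0 (median -1.18), and miR-302d-3p changed by -0.87 (SE 1.17). The ESC groups went apart here. The summed level of the listed strands was 1627 to 2020 on day 5, but 3658 to 4014 in P2. It was 166 to 167 in P4 and 816 to 841 in P15. In the epithelial miR-200 family 1 of 8 rose and 0 fell (median 0.57), namely miR-200b-3p (0.72, SE 0.11, limma adjusted p = 9.80e-04). The ESC groups went apart for this family too. The share of its 9 listed strands was 0.197% to 0.199% on day 5 and 0.331% to 0.350% in P2. It was lower in P4, at 0.0960% to 0.119%, and overlapped day 5 in P15, at 0.195% to 0.237%. None of the 7 tested neural and sensory miRNAs passed in either direction (median 0.02); miR-128-3p, the most abundant of them, changed by -0.02 (SE 0.19, limma adjusted p = 1). The summed level of the 12 listed neural and sensory miRNAs was 647 to 717 in ICM, 286 to 735 in outgrowths and 576 to 863 in ESCs, at most 0.115% of a library. Of the 12, 7 were listed at 0 in both shallow ICM libraries, among them the neuronal markers miR-124-3p and miR-9-3p, whereas miR-128-3p stood at 462 and 524 there. In all outgrowth libraries 0 of the 12 were at 0 throughout, and in all ESC libraries 1 was, miR-204-3p.

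Markers of other cell types held at most 2.29% of a library. The 11 listed fibroblast and smooth muscle miRNAs held 1.32% and 1.40% of ICM libraries, 0.382% to 2.29% of outgrowth libraries and 0.253% to 0.385% of ESC libraries, where 2 of the 11 were at 0 throughout (miR-10b-3p and miR-199b-5p). In ICM most of this was 1 miRNA, miR-10b-5p, at 5955 and 7709 where the list summed to 7935 and 8791. Of the 11, 5 were at 0 in both ICM libraries. In ESCs against day 5, 5.92% of all tested miRNAs were called higher and 9% lower. There, 1 of 6 tested fibroblast and smooth muscle miRNAs rose and 0 fell (median -0.41). Their most abundant, miR-10b-5p, changed by -0.81 (SE 0.38, limma adjusted p = 0.249). Of the blood miRNAs 0 of 5 rose and 2 fell (median 0), at 0.0752% to 0.469% of a library, with miR-223-3p at 0 in all ESC libraries, and miR-142-5p changed by 0.02 (SE 0.29). Of the endoderm miRNAs 1 of 3 rose and 1 fell (median 0.64), and miR-192-5p rose by 1.04 (SE 0.28, limma adjusted p = 0.0256). The liver marker miR-122-5p was at 0 in all ICM and ESC libraries, but not in all outgrowth libraries. The summed level of the 4 listed endoderm miRNAs was highest in P15, at 3365 and 4015 against 1064 to 1693 in the other ESC libraries, where the 5p arms of the cluster were highest as well, and the part of these lists in the levels of the cluster was not tested. In these bulk libraries, fewer cells of a type and less RNA per cell cannot be told apart.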

How the data were processed

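Small RNAs of 18 libraries were isolated with a PureLink kit and made into TruSeq Small RNA libraries, per the labels' protocols. The authors deposited 1 score for each mature miRNA in each library, which is a count after normalization, without decimals. The submitters' processing notes name cutadapt, DESeq2 1.30.0 and mm10; the annotation used, the aligner and the counter were not given in these sources. Libraries were grouped by description, and the day 0 columns were joined by title.

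Depth was estimated from the spacing of values below 1000: a step between 1.6 and 8 on which at least 99% of values fell within 0.5 was found in 10 libraries (1.73 to 5.44 normalized counts per read).

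limma 3.58.1 (R 4.3.3; trend, robust) was fitted to log2(normalized count + 1) in 9 group means. miRNAs at 10 or more in at least 2 libraries were tested, with two-sided Benjamini-Hochberg adjusted p below 0.05 over all tested. At the common floor, 602 were tested. Arm ratios used log2 of (5p + 1) over (3p + 1), without trend. The script was tested on simulated data. Named miRNAs were all 6 members, the 3 most correlated non-members of each 5p arm, and the most abundant tested miRNA of each list. Members and lists were chosen with earlier results of these data known. Alternatives were the replicate block, a pseudocount of 10, no filter, rescaling to equal totals, quantile normalization, the common floor, limma array weights and leaving out each library.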

Additional observations from a re-analysis of the deposited data

Results flagged for a closer look

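miR-96-3p stood at 7 in day 5 replicate 1, far from the other 9 outgrowth libraries, of which the next highest held 2 and the rest were listed at 0. The flag's rate of about 1 in 20 by chance holds for normally distributed values, not for a group mostly listed at 0. The 2 libraries above 0 are the 2 deep ones among the outgrowths.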

How the results depend on the processing

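Of 1053 recomputed values of single members and hairpins, 923 kept their direction and their side of the threshold. The calls of miR-182-5p and miR-183-5p as higher in ESCs than in ICM were kept under every alternative run. Counts of members called that moved by more than 1.5 times are given first, with the count as reported before the other. With library weights, ESCs against ICM went from 5 to 3 higher and from 1 to 0 lower, outgrowths against ICM from 3 to 1, ESCs against day 5 from 1 to 2, day 1 against day 0.5 from 1 to 0, day 5 against day 3 from 1 to 0, P4 against P2 from 0 to 1 lower, P15 against P2 from 1 to 4, P15 against P4 from 1 to 5, and the arm ratio from 0 to 1 against day 5 and from 1 to 0 against ICM. At the common floor the counts went from 1 to 2 for ESCs against day 5, from 0 to 1 for day 0.5 against ICM, from 0 to 1 for day 2 against day 1, from 1 to 0 for day 5 against day 3, from 1 to 2 for P15 against P4, and from 0 to 1 and from 1 to 2 for the arm ratio against day 5 and ICM. Rescaling to equal totals gave 0 in place of 1 for ESCs against day 5, 1 in place of 0 for day 2 against day 1, 1 lower in place of 0 for P4 against P2, and 2 in place of 1 for P15 against P4. Quantile normalization gave 0 in place of 1 for ESCs against day 5, day 5 against day 3, P15 against P2 and P15 against P4, and 1 lower in place of 0 for P4 against P2. A pseudocount of 10 gave 1 in place of 0 for day 0.5 against ICM, 0 in place of 1 for day 5 against day 3 and 3 in place of 1 for P15 against P4. Without a filter the 1 lower member of ESCs against outgrowths was lost (0), and with day 5 and ESC libraries alone the arm ratio had 1 call in place of 0. Smaller moves were from 5 to 4 for ESCs against ICM at the common floor, from 3 to 4 for outgrowths against ICM after quantile normalization, and from 4 to 3 for ESCs against outgrowths at equal totals, after quantile normalization and at the floor. The cause was not tested.

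Leaving out 1 library at a time gave 2 to 3 higher members for outgrowths against ICM, 3 to 4 for ESCs against outgrowths, 0 to 1 lower members for ESCs against ICM and against outgrowths, 0 to 2 higher for ESCs against day 5, 0 to 1 for day 0.5 against ICM, 0 in each case for day 1 against day 0.5, 0 to 1 lower for day 3 against day 2, 0 to 2 higher and 0 to 1 lower for day 5 against day 3, 0 to 1 for P15 against P2, 0 to 2 for P15 against P4 and 1 to 2 for the arm ratio against ICM. Signs turned in 12 values under the other alternatives and in 26 without single libraries, each of a change that was not called as reported. The miR-183 arm ratio of ESCs against ICM turned from -0.85 to 1.53 at the common floor and 0.83 with a pseudocount of 10, which also turned the miR-96 ratio to 0.91 against ICM and 0.38 against day 5. At equal totals, miR-183-3p turned to -0.19 for day 2 against day 1, miR-183-5p to 0.029 for day 5 against day 3, and miR-96-3p to -0.30 and miR-182-3p to -0.22 for P15 against P2. Quantile normalization turned miR-182-5p to -0.75 for P15 against P2, miR-183-5p to 0.090 for day 5 against day 3, and miR-183-3p to 0.019 and miR-96-5p to 0.028 for P4 against P2. Without single libraries, miR-182-3p ran from -3.16 to 0.13 for ESCs against day 5, from -1.20 to 0.39 for day 0.5 against ICM, from -0.36 to 0.58 for day 1 against day 0.5, from -0.29 to 0.83 for day 2 against day 1 and from -1.51 to 5.11 for day 5 against day 3. miR-183-3p ran from -0.77 to 0.080 for day 1 against day 0.5, from -0.49 to 0.57 for day 2 against day 1 and from -0.42 to 0.12 for P4 against P2. miR-96-5p ran from -0.60 to 0.88, from -0.47 to 1.01, from -1.40 to 0.16 and from -0.83 to 0.57 for day 1 against day 0.5, day 2 against day 1, day 5 against day 3 and P4 against P2. miR-182-5p ran from -0.34 to 0.49 for day 3 against day 2 and from -0.60 to 0.021 for P4 against P2, miR-183-5p from -1.06 to 0.88 for day 5 against day 3 and from -0.11 to 1.44 for P4 against P2, and miR-96-3p from -0.052 to 0.58 for P15 against P2. The arm ratio ran from -1.53 to 1.45 for miR-96 against day 5 and from -3.88 to 2.18 for miR-183 against ICM. With the replicate number as a block, the 1 lower member of ESCs against outgrowths became 0, and no other count of members moved. The numbers did not pair the libraries: within-group deviations of same-numbered libraries correlated between -0.36 and 0.24, above 0.1 in 3 of 36 pairs of groups. Depth limits miR-96-5p in ICM, at 6 and 13 reads, and miR-96-3p before day 5.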
